A study of Mus musculus with 12 samples.

Results

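The mitochondrial respiratory chain genes described here are the nuclear genes for subunits of complexes I to IV and of the ATP synthase, complex V. They were taken by a rule on gene symbols, chosen with earlier results of these data known. A symbol was taken if it began with Nduf and a letter among a, b, c, s and v before a digit, with Cox and a digit from 4 to 8 before a letter, with Uqcr or with Atp5, or if it was 1 of Sdha, Sdhb, Sdhc and Sdhd. Of 24477 genes on the array, 77 matched, with 35 in complex I, 4 in complex II, 8 in complex III, 17 in complex IV and 13 in complex V. Of these, 66 are general subunits found in most tissues, 3 are the muscle-type isoforms Cox6a2, Cox7a1 and Cox8b, 5 are isoforms of otherwise restricted expression and 3 are annotated as pseudogenes. Subunits encoded by the mitochondrial genome were not analysed here.

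Complexes I and II pass electrons from NADH and succinate to ubiquinone, complex III passes them on to cytochrome c, and complex IV, cytochrome c oxidase, hands them to oxygen. The proton gradient that complexes I, III and IV build drives ATP synthesis by complex V. Several small subunits of complex IV come as a pair of isoforms, of which one is made in most tissues and the other mainly in heart and skeletal muscle. The tongue epithelium lies over striated muscle, so such isoforms can be read beside the muscle RNA in a dissected sample.

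Epithelial cells of the tongue were cut out by laser microdissection from 12 male CBA mice, and their amplified RNA was hybridized to Affymetrix arrays, 1 per mouse. Of these mice, 9 had drunk water with the DNA-damaging carcinogen 4-nitroquinoline 1-oxide (4-NQO) at 100 ug/mL over 8 weeks. They gave 3 samples of hyperplasia, labelled with ages of 16, 20 and 20 weeks, 3 of dysplasia, at 16, 16 and 24 weeks, and 3 of tumor, at 16, 20 and 24 weeks, and 3 untreated control mice gave normal mucosa, at 12, 20 and 24 weeks. All lesions came from treated mice and all normal mucosa from untreated ones, so lesion and exposure to 4-NQO cannot be told apart in a comparison with normal mucosa. Values are log2 expression values after the robust multi-array average (RMA). Each value belongs to 1 probe set, and levels of different genes are not set against each other. A difference is a difference of mean log2 values, tested with limma, a linear model with a moderated variance, on all genes with Benjamini-Hochberg adjustment. A gene was called if its adjusted p was below 0.05. Because the fit shares the normal and the lesion samples, the comparisons between stages are not independent.

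The arrays had medians of 6.16 to 6.35. The mean of 14 keratinocyte markers lay between 10.78 and 11.39 in all 12 samples. It was lowest in tumor 2, dysplasia 2 and hyperplasia 1, at 10.78, 10.86 and 11.01, and highest in dysplasia 1, at 11.39. In tumor minus normal, 7 of the 14 were above 0 and 1 was called each way, Dsg3, a desmosomal cadherin, higher by 1.29 ± 0.28 and Krt4, a keratin of differentiated mucosa, at -2.97 ± 0.60 (SE, adjusted p = 0.0388 and 0.0286 in limma). The mean of 20 skeletal muscle markers varied far more. It was 8.76, 6.03 and 7.96 in normal mucosa, 8.53, 7.77 and 6.23 in hyperplasia, 5.92, 5.73 and 6.62 in dysplasia, and 6.67, 5.77 and 5.60 in tumors. Both high and low values thus occurred among normal and hyperplastic samples, while dysplasias and tumors were all at 6.67 or below. In tumor minus normal, 19 of the 20 were below 0 and none was called. Fewer muscle cells in a dissected sample and less muscle RNA per cell cannot be told apart in such bulk samples. All 3 tumors had a higher RNA integrity number (RIN) than all 3 normal samples, and the 12 RNAs were prepared on 8 days. The mean of 10 fibroblast markers was 6.83, 6.76 and 6.96 in tumors, against 7.42, 7.26 and 7.66 in normal mucosa, with 7 of 10 below 0 and Dcn called. The mean of 10 endothelial markers was 6.56, 6.84 and 6.67 in tumors, against 6.05, 6.28 and 6.26 in normal mucosa, with 8 of 10 above 0 and Cdh5 called. Both means separated tumors from normal mucosa without overlap, and their part in the differences between these stages was not tested. The mean of 8 leukocyte markers was 5.63, 5.83 and 5.85 in normal mucosa, 5.98, 6.66 and 6.22 in hyperplasia, 7.85, 6.84 and 7.03 in dysplasia, and 6.06, 6.06 and 5.92 in tumors, so that all dysplasias lay above all other samples.

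The muscle-type isoforms of complex IV followed the muscle RNA of each sample, whereas their general counterparts did not vary with it beyond their error. With the stage means taken off, Cox8b had a slope of 1.95 ± 0.15 (SE, 12 mice) on the muscle marker mean, Cox7a1 of 1.84 ± 0.20 and Cox6a2 of 1.45 ± 0.17, each per log2 unit of the mean. The adjusted p of limma was 0.000152 for Cox8b, 0.00275 for Cox7a1 and 0.006 for Cox6a2. These were the only members called for this slope, 3 of 77, beside 32 genes in all with a rising slope, 0.131% of the genes tested. The muscle marker list itself had 12 of 20 genes called, among them Acta1, skeletal muscle alpha actin, with a slope of 1.67. The calls rest in part on single mice. Without normal 2, the normal sample poor in muscle RNA, only Cox8b remained called, and without normal 1 or without hyperplasia 3 the calls were Cox7a1 and Cox8b.

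The general isoforms that occupy the same places in complex IV are Cox6a1, Cox7a2 and Cox8a. Their slopes were -0.00 for Cox6a1, 0.02 for Cox7a2 and 0.05 for Cox8a. The 95% confidence intervals ran from -0.17 to 0.17 for Cox6a1, from -0.19 to 0.22 for Cox7a2 and from -0.16 to 0.26 for Cox8a. None of these intervals overlapped that of its muscle-type isoform, for which the lowest bound was 1.07, in Cox6a2. The difference between the slopes of a pair was not tested.

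**Figure D1:**
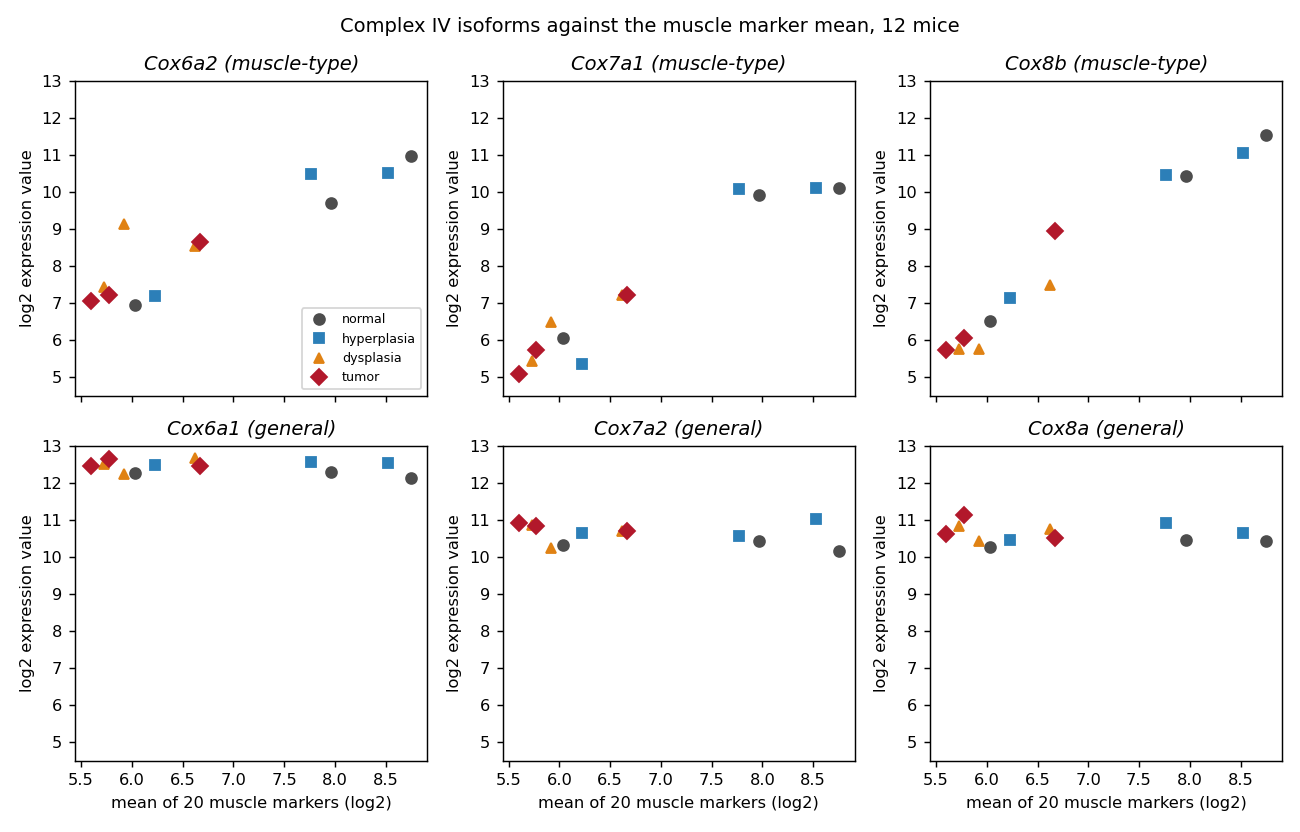
Log2 expression value of the muscle-type isoforms (upper row) and their general isoforms (lower row) against the mean log2 value of 20 skeletal muscle markers, 1 point per mouse, with shape and colour giving the stage. The muscle-type isoforms are higher in samples with a higher marker mean, with slopes of 1.45 to 1.95, and the general isoforms lie flat.

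Promoter sequences are shown for the pairs Cox7a1 and Cox7a2, and Cox8b and Cox8a, to set a muscle-type isoform beside its general counterpart. Each runs from 250 bases before to 50 bases after the start of the gene in RefSeq (GRCm38.p6), and 60 of the 77 members, 56 of them general subunits, have an entry. The windows are chr7:30183921-30184220 on the plus strand for Cox7a1, chr9:79759804-79760103 on the minus strand for Cox7a2, chr7:140900397-140900696 on the minus strand for Cox8b and chr19:7217567-7217866 on the minus strand for Cox8a. Capitals mark matches on either strand to CAGCTG, an E-box of the kind bound by myogenic factors, and to CGGAAG, the core of sites of ETS factors such as GABP (NRF2), a known regulator of respiratory chain genes.
Cox7a1: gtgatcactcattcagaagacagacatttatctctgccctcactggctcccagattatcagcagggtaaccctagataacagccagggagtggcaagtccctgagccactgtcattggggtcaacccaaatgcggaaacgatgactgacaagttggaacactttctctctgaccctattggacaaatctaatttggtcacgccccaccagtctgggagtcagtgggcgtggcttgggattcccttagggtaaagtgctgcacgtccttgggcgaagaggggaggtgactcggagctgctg
Cox7a2: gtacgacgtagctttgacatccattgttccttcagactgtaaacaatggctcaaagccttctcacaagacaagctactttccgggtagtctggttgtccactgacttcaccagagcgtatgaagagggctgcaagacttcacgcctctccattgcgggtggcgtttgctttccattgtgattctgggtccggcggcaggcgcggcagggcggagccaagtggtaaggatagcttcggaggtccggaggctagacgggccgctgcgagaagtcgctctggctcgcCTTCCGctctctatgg
Cox8b: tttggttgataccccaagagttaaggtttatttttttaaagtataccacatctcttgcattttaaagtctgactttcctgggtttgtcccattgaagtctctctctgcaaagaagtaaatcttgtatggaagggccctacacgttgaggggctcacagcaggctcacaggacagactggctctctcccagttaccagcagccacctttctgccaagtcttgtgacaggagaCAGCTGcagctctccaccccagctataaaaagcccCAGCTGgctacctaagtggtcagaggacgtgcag
Cox8a: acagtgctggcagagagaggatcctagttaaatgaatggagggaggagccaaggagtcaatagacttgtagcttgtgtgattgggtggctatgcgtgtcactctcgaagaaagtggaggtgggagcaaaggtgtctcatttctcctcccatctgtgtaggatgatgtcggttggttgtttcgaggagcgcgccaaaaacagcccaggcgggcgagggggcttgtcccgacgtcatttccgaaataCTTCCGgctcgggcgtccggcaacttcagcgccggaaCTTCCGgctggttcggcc
The window of Cox8b held 2 E-boxes and no ETS core, and that of Cox7a1 held neither. Cox7a2 had 1 ETS core and Cox8a had 2, and neither had the E-box. Among the promoters of general subunits, 41.0% of 61 held the ETS core and 6.56% the E-box. Over all 32851 promoters in the table the shares were 16.9% for the ETS core and 16.3% for the E-box. The motifs were chosen after the sequences had been read, and a match is only a match of letters.

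Between stages, all 3 muscle-type isoforms had a lower mean in tumors than in normal mucosa, but none was called. Cox8b had 8.96, 6.07 and 5.73 in tumors, against 11.53, 6.53 and 10.43 in normal mucosa, and 11.05, 10.46 and 7.14 in hyperplasia and 5.77, 5.77 and 7.50 in dysplasia. Cox7a1 had 7.22, 5.73 and 5.09 in tumors, against 10.12, 6.05 and 9.91 in normal mucosa, and 10.12, 10.10 and 5.37 in hyperplasia and 6.49, 5.43 and 7.21 in dysplasia. Cox6a2 had 8.66, 7.22 and 7.05 in tumors, against 10.99, 6.96 and 9.70 in normal mucosa, and 10.52, 10.48 and 7.21 in hyperplasia and 9.13, 7.45 and 8.54 in dysplasia. In each gene the low normal sample was normal 2 and the low hyperplasia was hyperplasia 3, the samples of each stage with the least muscle RNA, and tumors and normal mucosa overlapped. The difference of tumor minus normal was -2.58 ± 1.31 (SE) for Cox8b, -2.68 ± 1.28 for Cox7a1 and -1.57 ± 1.02 for Cox6a2, with adjusted p of 0.342, 0.314 and 0.467 in limma. With the muscle marker mean as a covariate the same differences were 0.48, 0.21 and 0.71. With RIN as a covariate they were -1.12, -1.01 and 0.16. Tumor 1 and normal 2, the only pair of these stages prepared on the same day, had Cox8b higher in the tumor by 2.43, Cox7a1 by 1.17 and Cox6a2 by 1.69. The median of the 3 was -1.56 without normal 1 and -4.01 without normal 2.

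Among the 66 general subunits, most had a higher mean in tumors than in normal mucosa, by small amounts, and no single one was called. Of the 66, 54 were above 0 with a median difference of 0.28, while over all genes the median was -0.05 with 44.3% above 0. No member of the 77 passed limma's adjusted threshold, where 1.97% of all genes did, 0.744% higher and 1.23% lower. At an unadjusted p under 0.05, limma gave 13 members, against 16.9% of all genes. Of these, 11 were higher in tumors, 10 of them general subunits, against 7.44% of all genes, and Cox6b2 and Atp5c1-ps were lower, against 9.5%. The t-test of the methods at that unadjusted threshold gave 16 members, 15 of them higher in tumors, where 14% of all genes passed in either direction and 6.33% were higher, and no member after adjustment. In 22 general subunits every tumor lay above every normal sample and in none below, where 10.3% of all genes lay wholly above and 13% wholly below. The 631 genes with a mean of at least 10 had a like shift, with a median of 0.24 and 470 above 0. In 231 of these 631 every tumor lay above every normal sample, and in 48 below. At an unadjusted p under 0.05, limma gave 158 of them higher and 44 lower, and the t-test 171 higher and 34 lower. Such counts were thus not particular to the respiratory chain. With 3 mice in each stage, a single value tested by exact permutation has 0.1 as its smallest possible p.

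**Figure D2:**
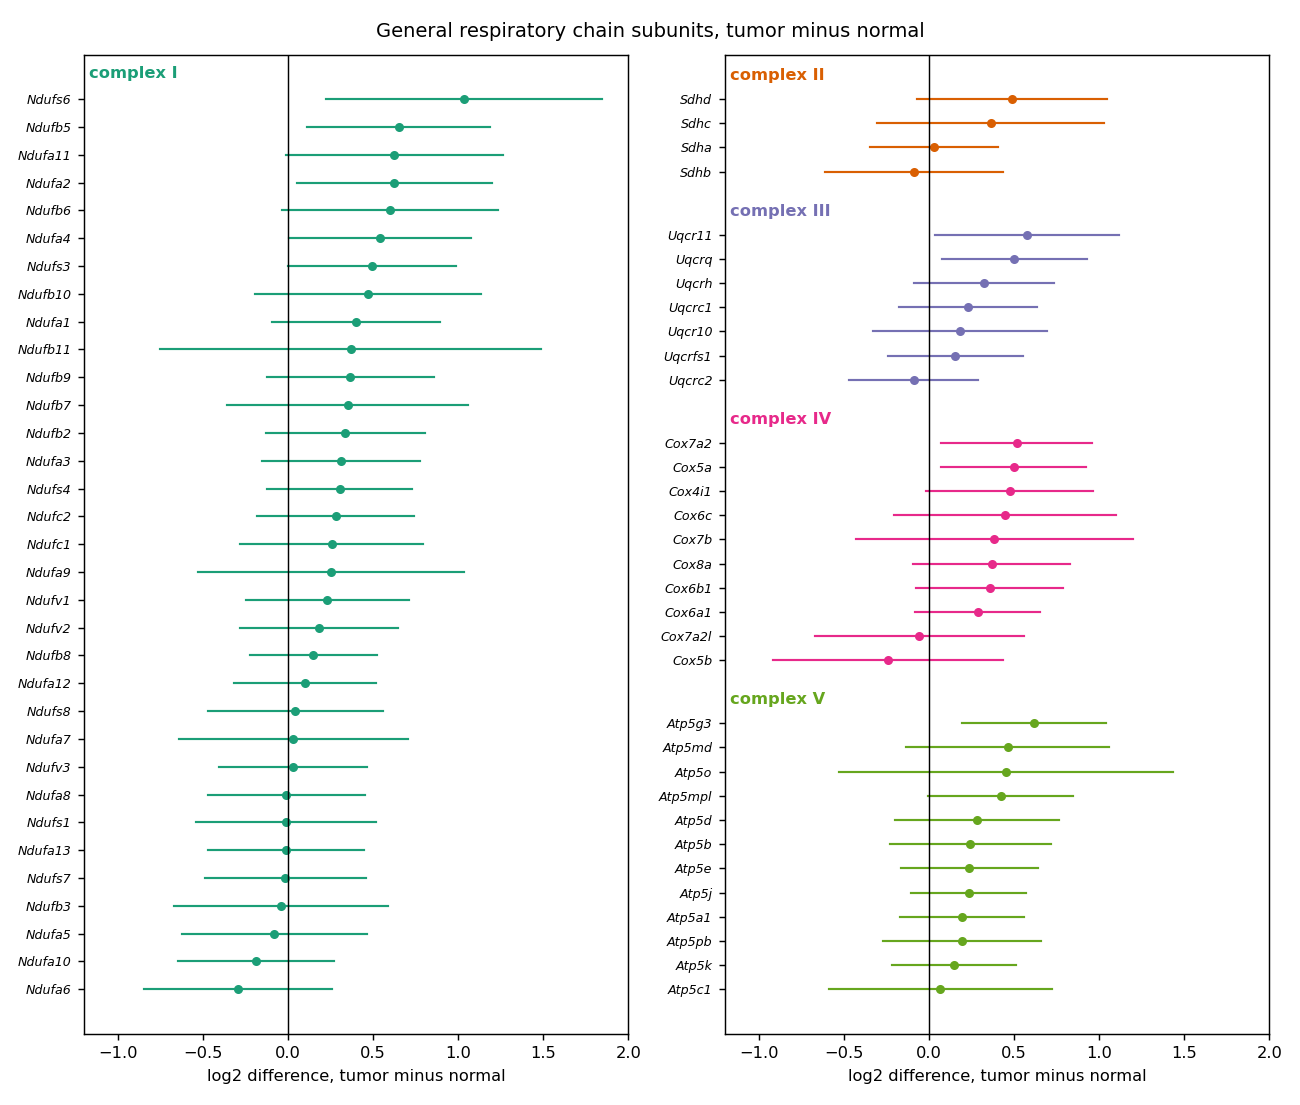
Log2 difference of tumor minus normal mean (point) with its 95% confidence interval (line) from limma for each of the 66 general subunits, grouped by complex and ordered by size, 3 mice per stage. In all, 54 points lie right of 0, from -0.30 to 1.03 over the whole, and no gene was called.

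RIN and the muscle marker mean were entered as covariates in turn. With RIN as a covariate, the median of the general subunits was 0.069 and 41 of 66 were above 0. In that fit their level had a median slope of 0.091 per RIN unit, with 58 of 66 above 0, against -0.011 and 45.4% over all genes, and limma called no gene for it, with 13 of the 66 at an unadjusted p under 0.05 and 2089 of all genes. The slope on RIN was also above 0 in 464 of the 631 genes with a mean of at least 10, at a median of 0.0497. It was above 0 in 67 of 76 mitochondrial ribosomal proteins and in 45 of 59 cytosolic ribosomal proteins. Slopes above 0 were thus not particular to the respiratory chain. The share of RIN in the stage difference was not tested. With the muscle marker mean as a covariate the median was 0.35 with 61 of 66 above 0. Between tumor 1 and normal 2, prepared on the same day, 48 of 66 were higher in the tumor, with a median of 0.15, against 0.0005 over all genes.

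Complex I, NADH dehydrogenase, had 25 of its 33 general subunits above 0 in tumor minus normal, with a median of 0.26. Ndufa4, now placed in complex IV, was counted here by its symbol. The largest difference was that of Ndufs6, a small subunit of the matrix arm. Ndufs6 had 7.24, 6.92 and 8.10 in tumors, against 6.08, 6.54 and 6.54 in normal mucosa, a difference of 1.03 ± 0.37 (SE, adjusted p = 0.183 in limma). Ndufb5, an accessory subunit of the membrane arm, had 10.54, 10.72 and 10.69 in tumors, against 9.62, 9.94 and 10.43 in normal mucosa, a difference of 0.65 ± 0.25 (adjusted p = 0.208 in limma). In both genes the tumors lay wholly above normal mucosa, as they did in 8 of the 33. They did so in 10.3% of all genes and in 231 of the 631 genes with a mean of at least 10. The core subunits Ndufv1 and Ndufs1 differed less. Ndufv1, which binds NADH, had 8.79, 9.14 and 8.44 in tumors and 8.48, 8.41 and 8.78 in normal mucosa, and Ndufs1, the largest iron-sulfur subunit, had 7.72, 8.43 and 8.31 in tumors and 8.34, 7.88 and 8.28 in normal mucosa. Their differences were 0.23 ± 0.22 and -0.01 ± 0.24, and the stages overlapped in both. Without tumor 2 the difference of Ndufv1 was 0.055. The median of the complex was -0.026 with RIN as a covariate and 0.15 without tumor 2.

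Complex II, succinate dehydrogenase, is also an enzyme of the citric acid cycle, and its 4 subunits gave a median of 0.19, or 0.10 with quantile normalization applied again and 0.08 without normal 2. The flavoprotein Sdha had 9.47, 9.23 and 9.62 in tumors and 9.38, 9.37 and 9.50 in normal mucosa, a difference of 0.03 ± 0.17. The iron-sulfur subunit Sdhb had 9.98, 10.16 and 10.03 in tumors and 10.31, 9.91 and 10.24 in normal mucosa, a difference of -0.09 ± 0.24. The membrane anchors Sdhd and Sdhc differed by 0.49 ± 0.26 and 0.36 ± 0.31. In all 4 genes the tumors overlapped normal mucosa, and the difference was 0.15 for Sdhc without normal 2 and 0.30 for Sdhd without tumor 2. Sdhc stood out in dysplasia 1, at 10.42, against 8.59 to 9.82 in the other samples.

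Complex III, ubiquinol-cytochrome c reductase, had 6 of 7 general subunits above 0, with a median of 0.23. Uqcr11 and Uqcrq, both small accessory subunits, had the largest differences. Uqcr11 had 9.91, 10.18 and 10.18 in tumors, against 9.30, 9.70 and 9.55 in normal mucosa (difference 0.57 ± 0.25, adjusted p = 0.267 in limma). Uqcrq had 11.25, 11.68 and 11.30 in tumors, against 10.80, 11.05 and 10.88 in normal mucosa (0.50 ± 0.19, adjusted p = 0.216 in limma). Tumors lay wholly above normal mucosa in both, and also in Uqcrc1, a core protein, which had 10.20, 10.31 and 10.26 in tumors and 10.04, 9.98 and 10.07 in normal mucosa. These were 3 of the 7, where tumors lay wholly above in 10.3% of all genes and in 231 of the 631 genes with a mean of at least 10. The Rieske iron-sulfur protein Uqcrfs1, which carries the electrons onward, differed by 0.15 ± 0.18, or 0.059 without normal 2, and overlapped. With RIN as a covariate the median of the complex was 0.072, and the differences were 0.07 for Uqcr11 and 0.24 for Uqcrq.

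Complex IV had the largest median of the 5 complexes, 0.38, with 8 of 10 general subunits above 0 and tumors wholly above normal mucosa in 7. Tumors lay wholly above in 10.3% of all genes and in 231 of the 631 genes with a mean of at least 10. Cox5a, a structural subunit, had 11.34, 11.65 and 11.47 in tumors, against 10.89, 11.16 and 10.92 in normal mucosa (0.50 ± 0.20, adjusted p = 0.227 in limma). Cox7a2 had 10.69, 10.85 and 10.93 in tumors, against 10.17, 10.33 and 10.43 in normal mucosa (0.51 ± 0.20, adjusted p = 0.225 in limma). Cox4i1, the largest nuclear subunit of the enzyme, had 11.82, 12.14 and 12.21 in tumors, against 11.46, 11.55 and 11.74 in normal mucosa (0.47 ± 0.22, adjusted p = 0.313 in limma). The 3 genes had every tumor above every normal sample, and so did Cox6a1 and Cox8a, with differences of 0.29 ± 0.17 and 0.37 ± 0.21, though Cox8a was at 0.18 without tumor 2. The median was 0.13 with RIN as a covariate and 0.24 without tumor 2.

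Complex V, the ATP synthase, had all 12 general subunits above 0, with a median of 0.24 and tumors wholly above normal mucosa in 4. The same held in 10.3% of all genes and in 231 of the 631 genes with a mean of at least 10. With RIN as a covariate the median was 0.11 and 11 were above 0, with Atp5md, a small subunit, at -0.017, and Atp5c1, the gamma subunit, was below 0 without tumor 1, at -0.15, without tumor 2 or without normal 1. Atp5g3, 1 of the genes for the c subunit of the rotor, had the lowest adjusted p of all general subunits. Its values were 10.95, 11.10 and 11.11 in tumors, against 10.34, 10.26 and 10.71 in normal mucosa, and its difference was 0.62 ± 0.19 (adjusted p = 0.130 in limma). It was also at 10.94 to 11.18 in hyperplasia, wholly above normal mucosa, and at 10.69 to 11.20 in dysplasia. The catalytic subunits shifted less. Atp5a1, the alpha subunit, had 11.67, 11.90 and 11.88 in tumors and 11.68, 11.48 and 11.71 in normal mucosa, and Atp5b, the beta subunit, had 11.28, 11.75 and 11.42 in tumors and 11.18, 11.19 and 11.34 in normal mucosa. Their differences were 0.19 ± 0.17 and 0.24 ± 0.22, and the stages overlapped. Without tumor 2 the difference of Atp5b was 0.11, and without normal 2 that of Atp5a1 was 0.12.

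The earlier lesions had a like shift. In hyperplasia minus normal, 54 of the 66 general subunits were above 0, with a median of 0.21, and in dysplasia minus normal 55, with a median of 0.23. All lesion stages were set against the same 3 normal samples here. None of the 77 members was called by limma in either comparison, where 0.0654% of all genes were called in hyperplasia and 0.764% in dysplasia. At an unadjusted p under 0.05, limma gave 5 members for hyperplasia, 3 higher and 2 lower, against 9.76% of all genes, 4.07% higher and 5.69% lower. For dysplasia it gave 7, 4 higher and 3 lower, against 12.2%, 5.48% higher and 6.76% lower. The t-test of the methods, unadjusted, gave 9 for hyperplasia, against 8.5%, and 2 for dysplasia, against 8.82%, and none after adjustment. In 20 general subunits every hyperplasia lay above every normal sample, against 7.08% of all genes, and in none below, against 8.96%. In 6 every dysplasia lay above, against 7.28%, and in 2 below, against 8.7%. Of the 631 genes with a mean of at least 10, 149 lay wholly above in hyperplasia and 40 below. In dysplasia 135 of them lay wholly above and 37 below. Among the general subunits, the largest differences in hyperplasia were those of Ndufa11, a membrane arm subunit of complex I, at 0.79 ± 0.29, and of Ndufs6, at 0.67 ± 0.37, with adjusted p of 0.396 and 0.605 in limma, and Atp5g3 followed at 0.58 ± 0.19 (adjusted p = 0.346). Ndufs6 had 6.70, 8.03 and 7.82 in dysplasia, against 6.08, 6.54 and 6.54 in normal mucosa, a difference of 1.13 ± 0.37 (adjusted p = 0.228 in limma), so that all dysplasias were above normal mucosa. Other cell types moved with these comparisons. In dysplasia minus normal all 8 leukocyte markers were above 0, with a median of 1.35 and the T cell receptor genes Cd3d and Cd3g called, and all 10 endothelial markers were above 0 in dysplasia and in hyperplasia, with none called. Their part in the shift of the subunits was not tested. Single mice weighed heavily on the medians of the subunits. The hyperplasia median was 0.14, with 46 above 0, without hyperplasia 1. The dysplasia median was 0.37, with 61 above 0, without dysplasia 1, but 0.12 without dysplasia 2 and 0.13 without dysplasia 3.

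**Figure D3:**
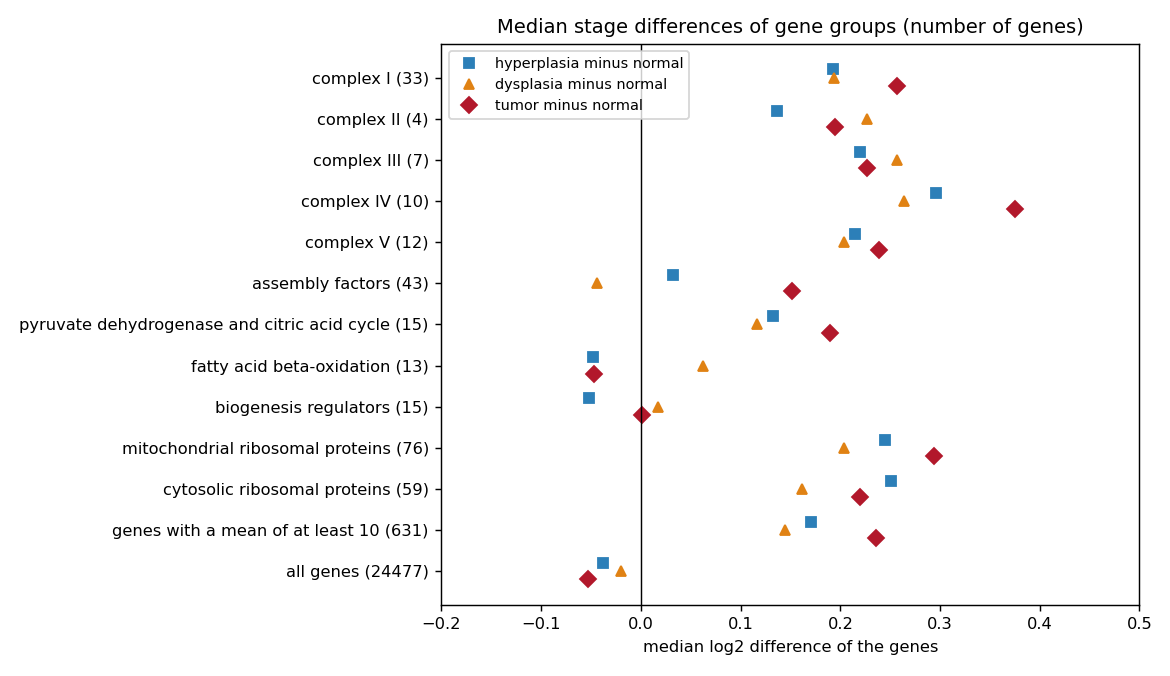
Median log2 difference of the general subunits of each complex and of the other gene groups for hyperplasia, dysplasia and tumor, each minus normal, with the number of genes in brackets. The 5 complexes lie between 0.14 and 0.38 in these comparisons, the mitochondrial and cytosolic ribosomal proteins and the 631 bright genes lie on the same side of 0, and the median of all genes is between -0.05 and -0.02.

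Among lesions the direction of the general subunits depended on single mice. In dysplasia minus hyperplasia 28 of 66 were above 0, with a median of -0.02, and in tumor minus dysplasia 44, with a median of 0.08. Without dysplasia 1, the counts were 56 with a median of 0.14 for dysplasia minus hyperplasia and 16 with a median of -0.08 for tumor minus dysplasia. Dysplasia minus hyperplasia also had 44 above 0 without hyperplasia 1, at a median of 0.068, and 16 without dysplasia 2, at -0.11. Tumor minus dysplasia had 31 above 0 without tumor 2, at a median of -0.014, 52 without tumor 1, at 0.17, and 52 without dysplasia 2, at 0.16. With RIN as a covariate tumor minus dysplasia had 22 above 0 and a median of -0.042, and with the muscle marker mean dysplasia minus hyperplasia had 37 and a median of 0.034. No member was called by limma in either, where 0% and 0.00409% of all genes were called. At an unadjusted p under 0.05, limma gave 1 member for dysplasia minus hyperplasia, Cox8b, lower in dysplasia, against 4.54% of all genes, 2.55% higher and 2% lower. For tumor minus dysplasia it gave 0, against 6.34%, 2.81% higher and 3.53% lower. The t-test of the methods gave 0 for dysplasia minus hyperplasia, against 3.98%, and 1 for tumor minus dysplasia, Cox8c, lower in tumors, against 5.69%. For any difference between the 4 stages, the F test of limma called no member, against 0.646% of all genes, and 5 members had an unadjusted p under 0.05, against 11.8%.

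The general subunits varied together from mouse to mouse, also within a stage. Their mean was 9.54, 9.52 and 9.63 in normal mucosa, 10.01, 9.66 and 9.65 in hyperplasia, 9.45, 9.97 and 9.87 in dysplasia, and 9.66, 10.01 and 9.83 in tumors. Hyperplasia 1, dysplasia 2 and tumor 2 were the high samples, while dysplasia 1 was lower than any normal sample. In hyperplasia 1, 63 of the 66 genes were above their own mean over the 12 mice, and in dysplasia 1 only 5 were, with 19 at their lowest there. Tumors, at 9.66 or above, and hyperplasias, at 9.65 or above, narrowly did not overlap normal mucosa in this mean, at 9.63 or below, whereas dysplasias did. Tumors also lay wholly above normal mucosa in the mean of the 631 genes with a mean of at least 10. The same held for the mean of the mitochondrial ribosomal proteins. Over the 2145 pairs of general subunits, 92.8% had a Pearson's r above 0 across the 12 samples, with a mean r of 0.43, and the mean was 0.44 after the stage means were taken off. Over all pairs of genes the mean r was 0.01 in both cases. Hyperplasia 1, dysplasia 2 and tumor 2 were also the highest samples in some related lists. Their means were 8.53, 8.64 and 8.67 in mitochondrial ribosomal proteins, against 8.05 in dysplasia 1. In cytosolic ribosomal proteins they were 8.22, 8.13 and 8.26, against 7.69. For pyruvate dehydrogenase and the citric acid cycle they were 9.40, 9.48 and 9.34, against 8.78. Other related lists differed. Hyperplasia 1 was below tumor 3 in assembly factors of the complexes, at 7.75 against 7.78. It was below dysplasia 3 in fatty acid beta-oxidation, at 8.35 against 8.40. In regulators of mitochondrial biogenesis it was below normal 1, at 6.87 against 7.11. In mitochondrial ribosomal proteins normal 1 was lower than dysplasia 1, at 8.00. In the 631 genes with a mean of at least 10, dysplasia 1 was at 10.78, above the normal samples at 10.63, 10.76 and 10.77. The profile of the subunits was thus shared in part with other lists. This is a description across 12 arrays, and the genes share the array, its amplification and its RIN. Dysplasia 1, the lowest sample, was also the one with the highest leukocyte marker mean. The endothelial marker mean was highest in hyperplasia 1, dysplasia 2 and tumor 2, at 6.94, 7.14 and 6.84, against 6.13 in dysplasia 1. The keratinocyte marker mean was lowest in the same 3 samples, at 11.01, 10.86 and 10.78, and highest in dysplasia 1, at 11.39. The part of these cell types in the values of the subunits was not tested.

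**Figure D4:**
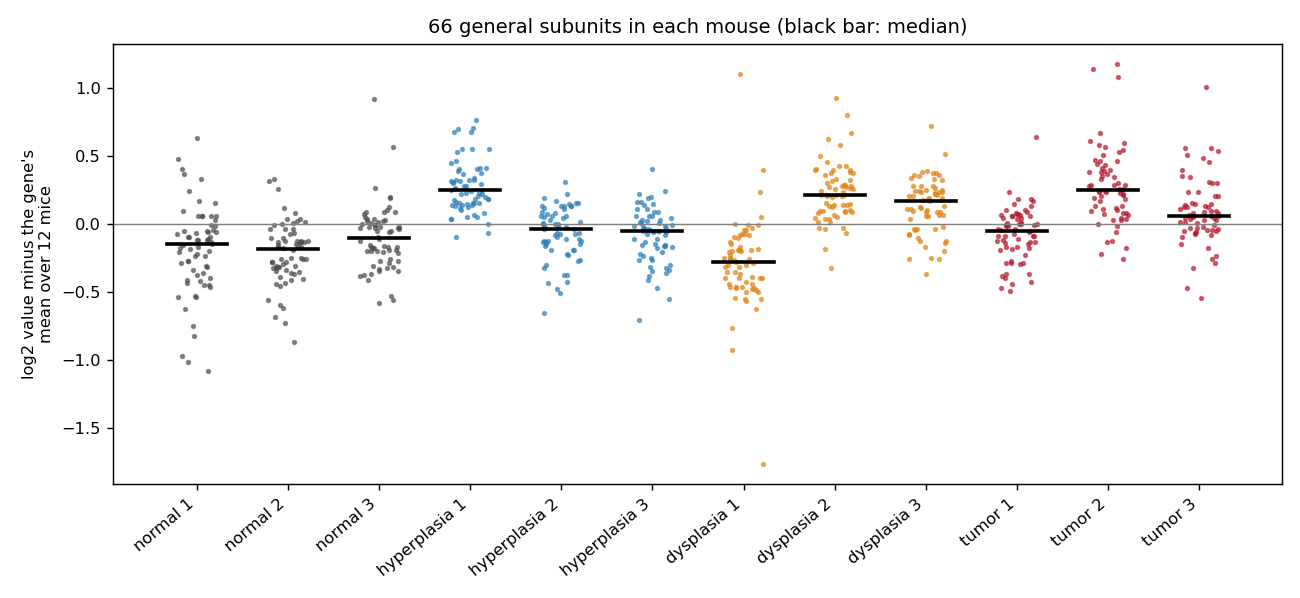
Log2 value of each of the 66 general subunits minus that gene's mean over the 12 mice, 1 column per mouse in the order of the stages, with a black bar at the median and horizontal scatter only for legibility. The medians of the 3 normal samples lie at -0.15, -0.18 and -0.10, hyperplasia 1 and tumor 2 are highest at 0.25 and dysplasia 1 is lowest at -0.28.

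The 5 isoforms of restricted expression all had a lower mean in tumors than in normal mucosa, and none was called. Cox6b2, known as a testis isoform of a subunit that faces the intermembrane space, came closest. Cox6b2 had 6.83, 6.57 and 6.25 in tumors, against 7.31, 7.44 and 7.51 in normal mucosa, with 6.81, 7.48 and 6.52 in hyperplasia and 6.87, 6.47 and 6.73 in dysplasia. All tumors and all dysplasias were below all normal samples. Its difference of tumor minus normal was -0.87 ± 0.25 (SE, adjusted p = 0.0947 in limma), the lowest adjusted p of the 77 members. Its general counterpart Cox6b1, named here after its values were seen, had 11.60, 11.90 and 11.63 in tumors and 11.36, 11.37 and 11.33 in normal mucosa, a difference of 0.36 ± 0.20.

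Ndufa4l2, a relative of the complex IV subunit Ndufa4 and a known target of the hypoxia-inducible factor HIF-1, was even in normal mucosa and uneven in lesions. It had 9.74, 9.82 and 9.60 in normal mucosa, 6.78, 7.90 and 9.02 in hyperplasia, 10.56, 7.61 and 7.98 in dysplasia, and 10.34, 8.25 and 10.13 in tumors. All hyperplasias lay below all normal samples, whereas dysplasias and tumors had values on both sides of them. Its difference of hyperplasia minus normal was -1.82 ± 0.76 (adjusted p = 0.464 in limma), and that of tumor minus normal was -0.14 ± 0.76. The tumor difference was 0.52 without tumor 2. Cox4i2, an isoform enriched in lung, differed between tumor and normal by -0.37 ± 0.22, and the testis isoforms Cox7b2 and Cox8c by -0.27 ± 0.23 and -0.17 ± 0.20. Cox7b2, at 3.32 to 4.24, and Cox8c, at 4.14 to 4.90, were near the dim end of the arrays, whose 5th percentile was 3.00 to 3.38.

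**Figure D5:**
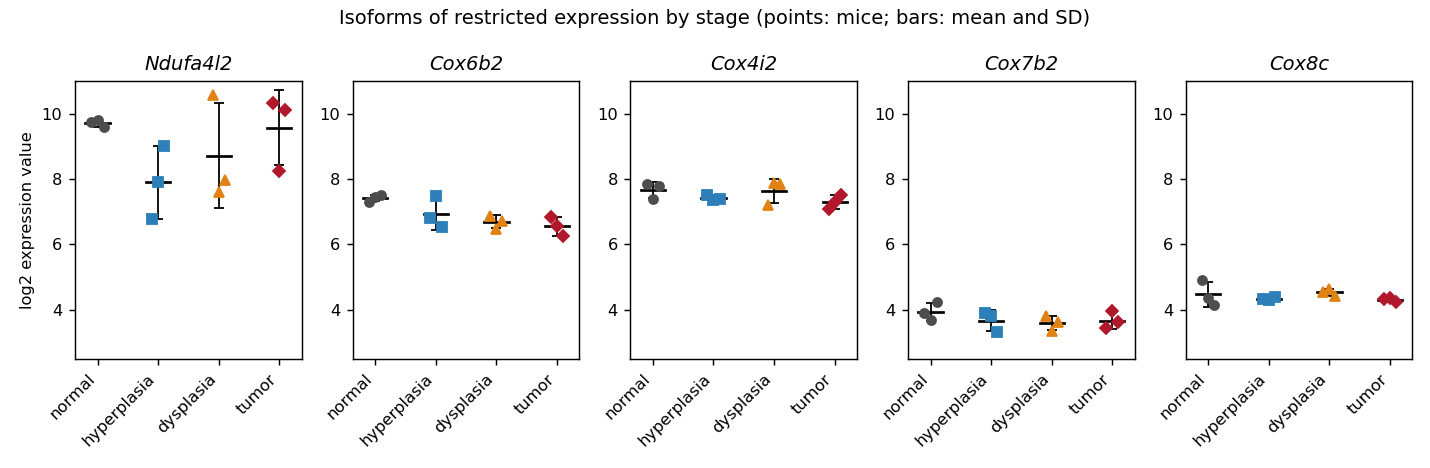
Log2 expression value of the 5 isoforms of restricted expression by stage, 1 point per mouse, with the mean and SD of the 3 mice of each stage as bars. The normal samples of Ndufa4l2 lie within 9.60 to 9.82 while its lesions spread from 6.78 to 10.56, and all tumors of Cox6b2 lie below its normal samples.

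The 3 pseudogenes were dim or moderate and moved in different directions. Ndufs5-ps, given here so that all 3 are shown, was the brightest. It had 8.25, 8.47 and 8.13 in tumors and 7.84, 7.95 and 7.57 in normal mucosa, a difference of 0.50 ± 0.24. Every tumor and every hyperplasia lay above every normal sample in this gene. Uqcrh-ps1 had 4.82, 5.18 and 3.53 in tumors and 2.66, 3.64 and 4.08 in normal mucosa, a difference of 1.05 ± 0.43. Atp5c1-ps had 3.34, 4.66 and 4.95 in tumors and 5.97, 4.68 and 5.41 in normal mucosa, a difference of -1.03 ± 0.42, whereas its parent gene Atp5c1 differed by 0.07 ± 0.30. None was called. Many subunits have processed copies in the genome, so a probe set may also record RNA of a near-identical gene.

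Neighbouring mitochondrial pathways were read from lists of known genes. Of 76 mitochondrial ribosomal proteins, 66 were above 0 in tumor minus normal, with a median of 0.29, and 1 was called, Mrpl33, which rose to 9.73, 10.06 and 9.94 in tumors, against 8.97, 9.11 and 8.62 in normal mucosa (1.01 ± 0.20, adjusted p = 0.0235 in limma). Of 59 cytosolic ribosomal proteins, 42 were above 0, with a median of 0.22, and 1 was called, Rpl35a, which rose by 1.42 ± 0.32 (adjusted p = 0.0462 in limma). A shift of the size seen in the respiratory chain was thus also present in genes of translation. Of 43 assembly factors of the complexes, 27 were above 0, with a median of 0.15, and none was called; the largest difference was that of Coa3, a complex IV assembly factor, at 1.17 ± 0.33 (adjusted p = 0.0952 in limma). Of 9 other subunits and electron carriers, 8 were above 0, with a median of 0.12 and none called; Gpd2, the mitochondrial glycerol-3-phosphate dehydrogenase, differed most, by 0.39 ± 0.21.

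Pyruvate dehydrogenase and the citric acid cycle had 11 of 15 genes above 0, with a median of 0.19 and none called, and Suclg2, a subunit of succinyl-CoA ligase, differed most, by 0.76 ± 0.37. Fatty acid beta-oxidation, which also feeds electrons to the chain, had 5 of 13 genes above 0, with a median of -0.05. Acadm, medium-chain acyl-CoA dehydrogenase, was its only call and fell to 7.98, 8.06 and 7.67 in tumors, against 9.31, 9.57 and 8.89 in normal mucosa (-1.36 ± 0.28, adjusted p = 0.0319 in limma). Regulators of mitochondrial biogenesis had 8 of 15 genes above 0, with a median of 0.00 and none called, and the largest difference was that of Tfb2m, a mitochondrial transcription factor, at 1.05 (adjusted p = 0.640 in limma). Tfb2m is dim on these arrays, with 1.38 in tumor 1, so its value has little weight.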

How the data were processed

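The deposited log2 values had been made by the authors with quantile normalization and RMA on custom probe sets, 1 per Entrez gene; the versions of the tools and the genome build are not given in the sources used here. Of 24479 probe sets, 23281 had 1 symbol in the platform annotation and 1198 had none; for 2 symbols with 2 probe sets each, the brighter was kept. Stages were taken from the labels, RIN and preparation day from the table of samples of the study. Limma 3.58.1 in R 4.3.3 fitted 4 stage means over 12 arrays (8 residual and 4.22 prior degrees of freedom), with 5 contrasts and a moderated F test, and a slope on the muscle marker mean with stage means kept. The fit was tested on simulated data. Arrays give no counting depth, so the 3 mice per stage limit the precision. Confidence intervals are at 95%.

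The members and gene lists were chosen with earlier results of these data known. Genes named were fixed core subunits of each complex, the isoform pairs, the restricted isoforms, the 2 members of a complex with the largest differences where none was called (tumor or hyperplasia minus normal), those with the extreme slopes, and from each list up to 3 called genes or the 1 with the largest difference; exceptions are marked. The alternatives tried were a second quantile normalization, removal of the dimmest 30% of probe sets, averaging of probe sets, an intensity trend, RIN or the muscle marker mean as a covariate, preparation day or replicate number as a block, only the groups compared, the t-test of the methods and each mouse left out. Leaving out normal 1 and dysplasia 1 together was added after seeing the data. Figures were drawn with matplotlib 3.10.9.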

Additional observations from a re-analysis of the deposited data

How the results depend on the processing

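The median differences of tumor minus normal stayed above 0 in each complex when any mouse was left out, with ranges of 0.15 to 0.33 in complex I, 0.08 to 0.25 in complex II, 0.20 to 0.25 in complex III, 0.24 to 0.45 in complex IV, 0.19 to 0.31 in complex V and 0.19 to 0.36 in all general subunits; the muscle-type isoforms ranged from -4.01 to -1.56. With RIN as a covariate the medians were -0.026 in complex I, 0.13 in complex IV and 0.069 in all general subunits, and 0.10, 0.07 and 0.11 in complexes II, III and V. With the muscle marker mean as a covariate the median of the muscle-type isoforms was 0.48. Quantile normalization applied again moved the median of all genes to 0.01 and that of the general subunits to 0.21, with 51 of 66 above 0. No member was called between stages by limma under any alternative, and the t-test of the methods at an unadjusted p of 0.05 gave 16 for tumor, 2 for dysplasia and 9 for hyperplasia, each minus normal, and 1 for tumor minus dysplasia. The number of members called for the muscle slope was 1 to 3 with a mouse left out.

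The replicate number of the labels as a block, a pairing that the arrays do not bear out (r of -0.11 to 0.11 over 18 same-numbered pairs, over 0.1 in 1, with 6 of 12 samples closest to their own number), gave 0 members called between stages and 2 for the muscle slope, Cox7a1 and Cox8b. The median of the general subunits under the block was 0.28.

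The difference of tumor minus normal changed sign in 15 of the 77 members with the RIN covariate, among them 13 general subunits that then lay below 0, and in 10 with the muscle covariate, among them 7 general subunits that then lay above 0. Of the genes named by rule, the following changed sign under an alternative, and the cause was not tested. With the muscle covariate Ndufs1 was at 0.14, Sdhb at 0.17, Ndufb3 at 0.39, Cox6a2 at 0.71, Cox7a1 at 0.21 and Cox8b at 0.48. With the RIN covariate Sdha was at -0.057, Cox6a2 at 0.16, Ndufa4l2 at 0.90, Ndufa11 at -0.030 and Atp5md at -0.017. A second quantile normalization gave -0.072 for Sdha. Without normal 1 and dysplasia 1 Ndufs1 was at 0.074, Cox8c at 0.045, Ndufb3 at 0.16 and Atp5c1 at -0.076. With each mouse left out in turn, Ndufs1 ran from -0.15 to 0.21, Sdha from -0.061 to 0.13, Cox8c from -0.33 to 0.045, Ndufa4l2 from -0.53 to 0.52, Ndufb3 from -0.22 to 0.16 and Atp5c1 from -0.15 to 0.41.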
